A study of Mus musculus with 12 samples.

Results

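Inguinal white adipose tissue (iWAT), a subcutaneous depot of the groin, was compared with epididymal white adipose tissue (eWAT), an intra-abdominal depot, in lean mice that received vehicle only. By their labels, 4 of the 12 libraries of the series belong to this comparison, 2 labelled iWAT WT-Veh and 2 labelled eWAT WT-Veh. The animals were wild-type C57BL/6J males aged 12 weeks, gavaged with methylcellulose 2 times a day for 3 days, so both depots share genotype, vehicle, age and sex. The libraries hold the stromal vascular fraction (SVF), which is what remains of several small biopsies of a depot after collagenase digestion and removal of the floating mature adipocytes. The labels do not tell whether an eWAT and an iWAT library with the same number came from the same mouse. The p-values below therefore rest on the spread between 2 libraries per depot, which the fit moderates with the spread of the other genes or classes tested. The measurement was single-cell RNA sequencing of RNA 3′ ends, with unique molecular identifiers (UMIs) to tell amplified copies of a transcript from separate transcripts.

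After filtering, 48090 of the 126095 kept cells of the series were in these 4 libraries, with 14718 and 6472 cells in eWAT replicates 1 and 2 and 17063 and 9837 in iWAT replicates 1 and 2. The libraries held 28375356 to 50149593 UMIs. iWAT replicate 1 stood apart from the other 3 libraries. Its cells had a median of 1132 UMIs, against 2046 to 4671 in the other libraries, and a median of 5.89% mitochondrial UMIs, against 3.32 to 3.46%. In it, 44.1% of the cells fell in low-UMI clusters led by Lars2, AY036118 and Gm42418, transcripts that rise in barcodes of poor RNA content, and these clusters were left without a name. Between 15 and 69 cell barcodes were shared by any pair of the 4 libraries. Because of these differences, the iWAT replicates are shown singly, and each fit was repeated with either of them alone.

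Fat depots form from different embryonic mesenchyme, and their stromal cells keep transcription factors that mark where in the body they arose. Adipocyte progenitor cells (APCs) include Dpp4- and Pi16-positive progenitors, which lie in the connective tissue around the lobules, and more committed preadipocytes, which give rise to adipocytes. Resident perivascular macrophages (PVMs) take up material from blood vessels through scavenger receptors, while lipid-associated macrophages (LAMs), marked by Trem2, Gpnmb and Cd9, handle lipid released by adipocytes. Endothelial cells (ECs) carry fatty acids from blood to fat, and the inguinal pad also encloses a lymph node that is rich in naive T and B cells.

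Cells were put in classes by marker genes, and a class is written with "-like" because its name rests on these markers alone. In APC-like cells the summed level of the 11 APC markers was 49832 to 64420 CPM (a gene's UMIs per 1000000 UMIs of the class in that library), none of them at 0 in any library. APC-like cells made up 27.5% (95% exact binomial interval 26.8 to 28.3) and 27.8% (26.7 to 28.9) of the eWAT libraries, 2.24% (2.02 to 2.47) of iWAT replicate 1 and 30.5% (29.6 to 31.4) of iWAT replicate 2. Macrophage-like cells were 54.3% and 42.7% of eWAT, 7.21% of iWAT replicate 1 and 34.5% of iWAT replicate 2. For APC-like cells, iWAT replicate 2 thus lay near the eWAT libraries and replicate 1 far below all of them. These intervals cover counting error only.

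The T- and B-like classes also differed widely between the iWAT replicates. T-like cells were 1.59% and 6.35% of eWAT, 16.7% of iWAT replicate 1 and 6.10% of replicate 2. B-like cells were 1.01% and 1.38% of eWAT, 10.9% of iWAT replicate 1 and 1.16% of replicate 2, so replicate 2 lay between the eWAT libraries. EC-like cells made up 2.86% and 8.53% of eWAT and 16.4% and 12.0% of iWAT, at a log2 ratio of 1.32 ± 1.62 (SE; adjusted p = 0.717). In iWAT replicate 1, 2393 of its 2803 EC-like cells were in a low-UMI cluster led by Cyyr1, Lars2 and Cdh5. Without that cluster the shares were 2.73% and 8.36% of eWAT, 2.40% of iWAT replicate 1 and 11.9% of replicate 2, so the iWAT pair lay on either side of eWAT. Group 2 innate lymphoid (ILC2)-like cells numbered 1 and 14 in eWAT and 23 and 130 in iWAT. These were 0.00679% and 0.216% of eWAT, 0.135% of iWAT replicate 1 and 1.32% of replicate 2, so the depots overlapped. Their log2 ratio of shares was 2.74 ± 1.74 (SE) in edgeR's quasi-likelihood test (adjusted p = 0.513).

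Mesothelial-like cells, the lining of the abdominal cavity that covers eWAT, were found almost wholly in eWAT by count. There were 167 and 70 such cells in the eWAT libraries and 3 and 6 in the iWAT libraries, a log2 ratio of shares of -4.82 ± 1.91 (SE) with an adjusted p of 0.112. This class passed with cells assigned singly (-5.54, adjusted p = 0.0108), at Leiden resolution 2 (adjusted p = 0.0348), with all 12 libraries and cells assigned singly (adjusted p = 0.00424) and without iWAT replicate 2 (adjusted p = 0.0186). Tested with edgeR's quasi-likelihood method and Benjamini-Hochberg adjustment over 12 classes, 1 class passed an adjusted p of 0.05, namely the unnamed cells (log2 ratio 6.64, adjusted p = 0.0417), and its log2 ratio was -1.11 without iWAT replicate 1. Without iWAT replicate 2, 6 classes passed, and without any of the other 3 libraries none did. With 2 libraries per depot an exact permutation test cannot go below p = 0.33.

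**Figure D1:**
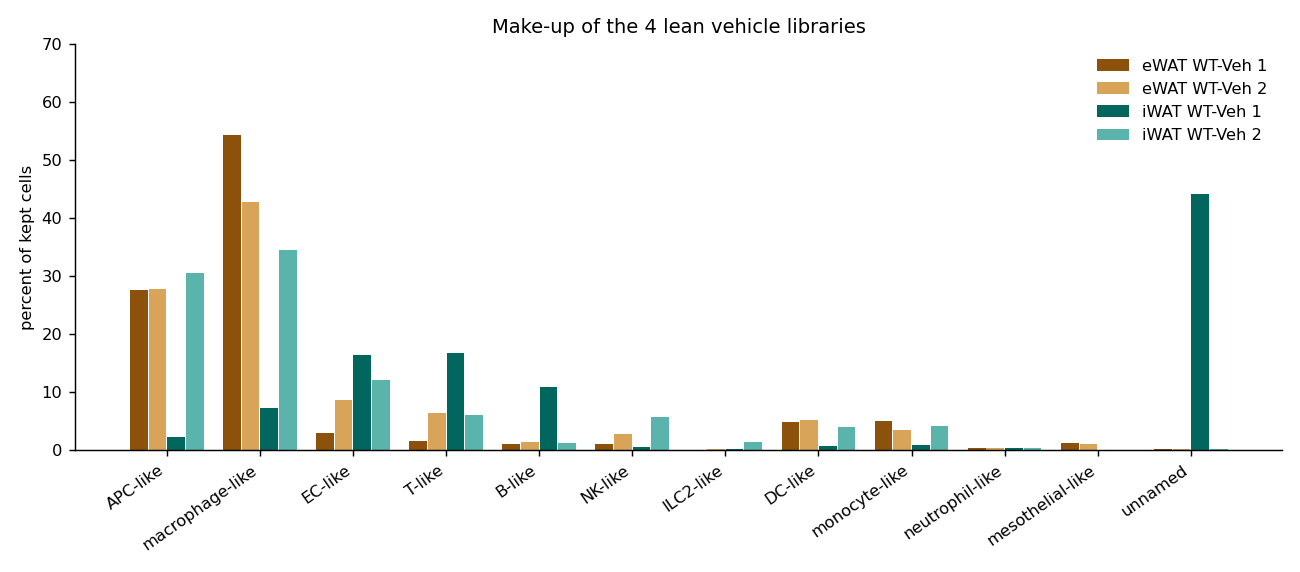
Percent of kept cells (vertical axis) in each marker-defined class (horizontal axis) for the 4 libraries, 1 bar per library. iWAT replicate 1 had 44.1% unnamed cells and 2.24% APC-like cells, while iWAT replicate 2 had 30.5% APC-like cells, close to the 27.5% and 27.8% of the eWAT libraries.

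APC-like cells of the depots differed first in transcription factors of body position. Tbx15, a T-box factor of limb and trunk mesenchyme encoded on chromosome 3 (99240381 to 99354259, plus strand, GRCm38), had 0 UMIs in both eWAT libraries and 33.4 and 27.7 CPM in the iWAT libraries. Taking the lower iWAT library against the floor of 3 UMIs over the 2 eWAT libraries, it was at least 159-fold higher in iWAT (adjusted p = 6.08e-04, edgeR's quasi-likelihood test). Wt1, a zinc-finger factor of intra-abdominal mesoderm encoded on chromosome 2 (105126529 to 105173616), showed the mirror image, with 39.9 and 47.4 CPM in eWAT and 0 UMIs in both iWAT libraries, at least 233-fold lower in iWAT by the same measure (adjusted p = 6.08e-04). The depots did not overlap for either gene, and the iWAT replicates were alike in both despite their difference in make-up.

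In the APC-like sums, 586 of 12684 genes tested were called, that is, 4.62% passed an adjusted p of 0.05 and at least 1.1-fold, 290 of them higher (2.29%) and 296 lower (2.33%) in iWAT. Of 10 tested regulators listed as subcutaneous, 6 were called higher and 1 lower. Besides Tbx15, the homeobox genes Shox2, En1, Irx1, Irx2 and Irx5 were higher. Shox2 had 0.127 and 0.107 CPM in eWAT and 23.6 and 46.4 CPM in iWAT, or 2 UMIs against 768, a ratio of 377 (95% counting interval 104 to 3118). En1, which patterns ventral limb skin and dermis, had 2.66 and 2.57 CPM in eWAT and 19.1 and 28.8 CPM in iWAT (log2 difference 3.27 ± 0.42 SE). Irx1 was at 0 UMIs in both eWAT libraries and at 6.87 and 30.6 CPM in iWAT, at least 39.4-fold higher, and was not called with cells assigned singly (adjusted p = 0.0573). Meox1, a somite homeobox gene placed on the same list, was lower in iWAT, with 26.6 and 17.8 CPM in eWAT and 5.89 and 2.90 CPM in iWAT, a call lost without eWAT replicate 1 (adjusted p = 0.101) or iWAT replicate 2 (0.053).

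Of 7 tested regulators listed as visceral, 2 were called, Wt1 and Tcf21, both lower in iWAT (28.6%, against 4.62% of all genes tested). Tcf21, a basic helix-loop-helix factor of visceral mesenchyme, had 34.5 and 28.5 CPM in eWAT, 1 UMI in iWAT replicate 1 and none in replicate 2, a ratio of 548 (95% counting interval 97.9 to 21687). Gata6 had 40.4 and 56.5 CPM in eWAT and 41.7 and 38.0 CPM in iWAT, with overlapping depots. Nr2f2, a nuclear receptor listed with them, had 66.1 and 101 CPM in eWAT and 45.2 and 33.1 CPM in iWAT but did not pass (adjusted p = 0.136). Osr1 and Bnc2, zinc-finger factors on the same list, lay higher in iWAT without overlap and were not called. Osr1 had 53.9 and 149 CPM in eWAT and 176 and 214 CPM in iWAT (adjusted p = 0.316). The 11 mesothelial markers include Wt1. Their other 10 summed to 16.9 and 9.87 CPM in eWAT APC-like cells and 10.3 and 10.8 CPM in iWAT, so they overlapped between depots.

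HOX genes lay out the head-to-tail axis. Of 24 HOX genes tested, 3 were called (12.5%, against 4.62% of all genes tested), the posterior genes Hoxa9, Hoxa10 and Hoxc10, all higher in iWAT. Without regard to calls, 4 lay higher and 8 lower in iWAT without overlap (50%, against 40.8% of all genes tested). Hoxc10 had 0.760 and 1.82 CPM in eWAT and 22.6 and 60.4 CPM in iWAT (log2 difference 5.08 ± 0.61 SE, adjusted p = 0.00215). Hoxa10 had 0.380 and 0.429 CPM in eWAT and 9.82 and 24.1 CPM in iWAT. The other 21 had log2 differences from -1.32 (Hoxa5) to 1.09 (Hoxb8), none called. Hoxc8, an example from the middle of a cluster, had 44.0 and 94.7 CPM in eWAT and 43.7 and 75.9 CPM in iWAT. The median over the 24 was -0.14, against 0.00 over all genes tested.

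**Figure D2:**
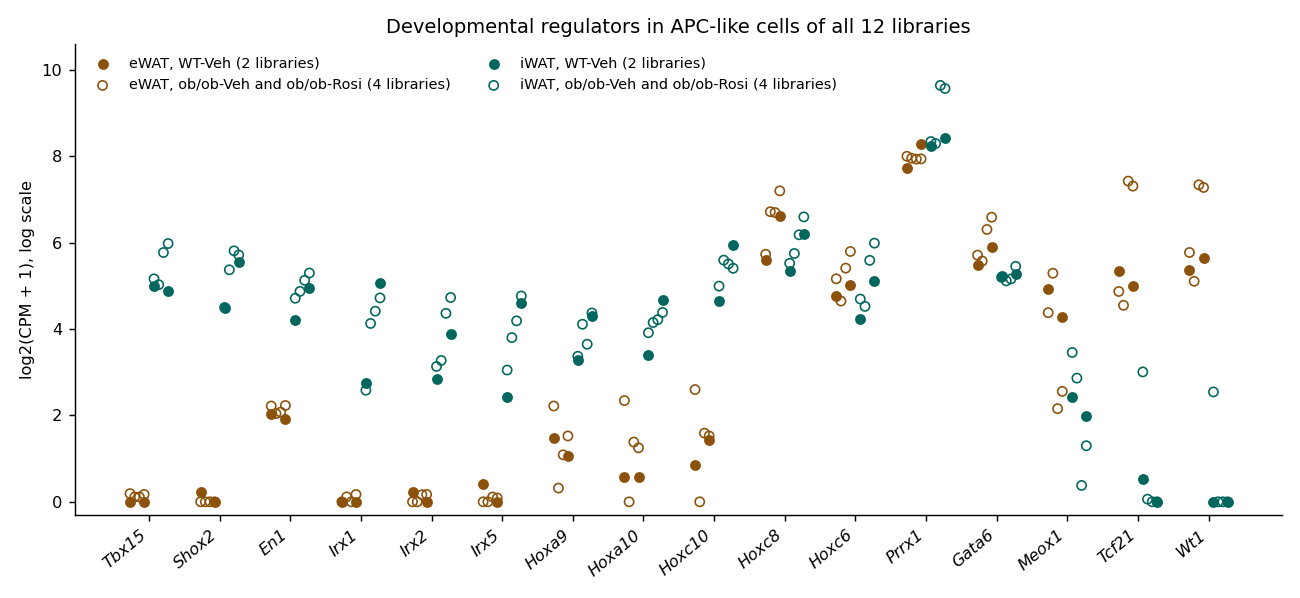
Level of 16 developmental regulators in APC-like cells as log2(CPM + 1) (vertical axis, log scale) in each of the 12 libraries, with cells assigned singly to a class; filled points are the 4 lean vehicle libraries and open points the ob/ob libraries. Tbx15, Shox2 and Irx1 lie near 0 in eWAT and above it in iWAT, while Wt1 and Tcf21 show the reverse except for 1 open iWAT point at each, and Hoxc8 and Gata6 overlap.

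The same depot difference in Tbx15 and Wt1 was seen in both parts of the APC-like class. In progenitor-like cells Tbx15 had 0 UMIs in eWAT and 34.6 and 22.4 CPM in iWAT, and in preadipocyte-like cells 0 UMIs in eWAT and 32.6 and 39.6 CPM in iWAT. Wt1 was absent from the iWAT UMIs of both parts, and its eWAT level was 85.2 and 108 CPM among progenitor-like cells and 44.5 and 39.9 CPM among preadipocyte-like ones.

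Large differences were also found in Mrgprg, Akr1c18 and Bmp3. Mrgprg, a Mas-related G protein-coupled receptor, had 0.634 and 1.39 CPM in eWAT APC-like cells and 448 and 721 CPM in iWAT (log2 difference 9.19 ± 0.62 SE, adjusted p = 2.95e-04). Within the class it was a progenitor gene, with 1209 and 1083 CPM in iWAT progenitor-like cells and 3.89 and 30.3 CPM in iWAT preadipocyte-like cells. Akr1c18, an aldo-keto reductase that inactivates progesterone, had 1.27 and 1.07 CPM in eWAT and 79.0 and 206 CPM in iWAT. Bmp3, a ligand of the BMP family, had 0.507 and 0.536 CPM in eWAT and 64.3 and 65.5 CPM in iWAT. In iWAT progenitor-like cells Akr1c18 had 210 and 309 CPM and Bmp3 160 and 97.7 CPM. In iWAT preadipocyte-like cells Akr1c18 had 2.33 and 7.67 CPM, too low to be tested. Bmp3 had 8.55 and 4.77 CPM there and was not called (adjusted p = 0.0646, edgeR's test). The depots also differ in their progenitor-like share, as given below, and its part in these values was not tested.

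By the fixed rule, 8 further genes higher in iWAT were named in APC-like cells: Cldn3 (a tight junction protein), Prkg2 (a cyclic GMP-dependent kinase), Pcdh20 (a protocadherin), Rorb (a nuclear receptor), Gpr1 (a receptor of chemerin), Crispld1 and Adh7 (a retinol and alcohol dehydrogenase), together with Shox2 above. Their log2 differences ran from 5.38 (Adh7) to 8.15 (Shox2), all called. Adh7 varied most between the iWAT libraries, at 20.1 and 85.5 CPM, against 1.65 and 1.07 CPM in eWAT. In a fit with iWAT replicate 1 alone its log2 difference was 3.89 and with replicate 2 alone 6.06.

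Genes lower in iWAT included collagens and other matrix proteins. Col6a5, a collagen VI chain, had 389 and 277 CPM in eWAT, 9.82 CPM in iWAT replicate 1 and 0.387 CPM in replicate 2 (log2 difference -6.69 ± 1.09 SE, adjusted p = 0.00851). Col8a1 had 142 and 93.9 CPM in eWAT and 5.89 and 5.03 CPM in iWAT. Ltbp2, a microfibril protein, had 47.5 and 53.2 CPM in eWAT and 2.45 and 0.387 CPM in iWAT. Tnc, which encodes tenascin C, had 58.9 and 26.2 CPM in eWAT and 1.47 and 1.61 CPM in iWAT.

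Tagln, an actin-binding protein of smooth muscle and myofibroblasts, had 154 and 78.9 CPM in eWAT and 2.94 and 2.77 CPM in iWAT. The mural cell markers other than Tagln and Acta2 summed to 47.6 and 79.4 CPM in eWAT APC-like cells and 48.1 and 27.7 CPM in iWAT, overlapping between depots. Aldh1a2, which makes retinoic acid, had 38.0 and 8.04 CPM in eWAT and 0.982 and 0.903 CPM in iWAT, opposite in direction to the retinol dehydrogenase Adh7, and its call was lost without eWAT replicate 1 (adjusted p = 0.0991) or iWAT replicate 2 (0.0517). The remaining named genes, Wipf3, Kng2 (a kininogen), Hp (haptoglobin) and Lrrn2, had log2 differences from -6.24 to -4.40.

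**Figure D3:**
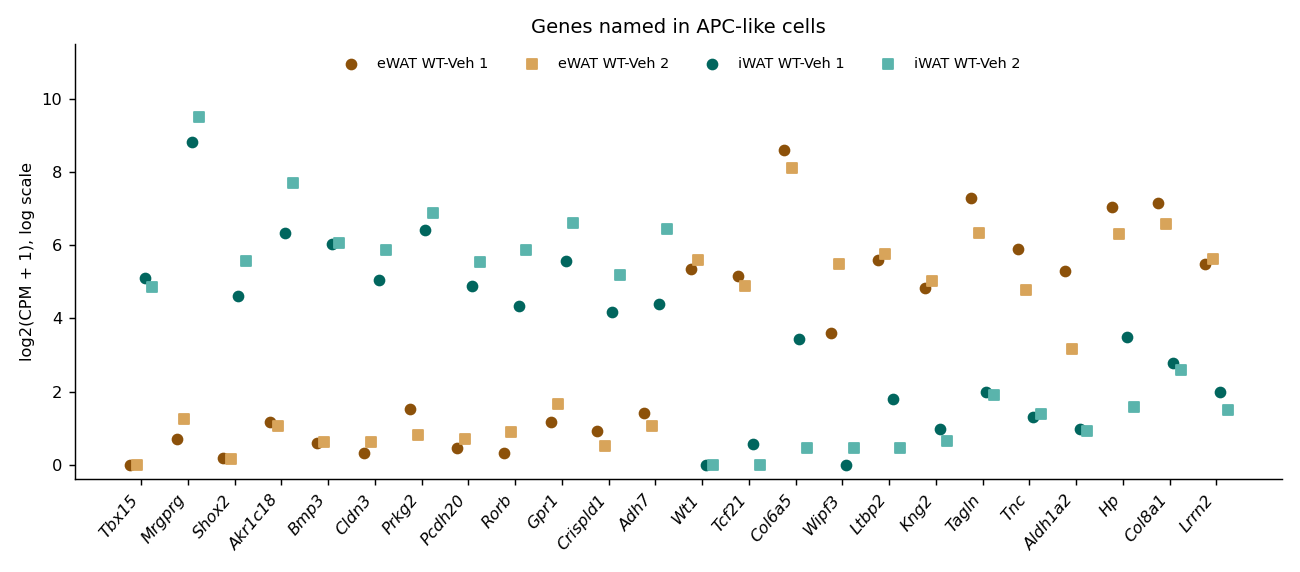
Level of the 24 genes named by rule in APC-like cells as log2(CPM + 1) (vertical axis, log scale), 1 point per library. The first 12 genes are higher in both iWAT libraries and the last 12 lower, which the rule that chose them required.

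The 586 genes called all had non-overlapping depots in CPM, a pattern seen in 40.8% of all genes tested. A fit with either iWAT library alone takes its spread from the eWAT pair only, so its calls are not separate support. The number of calls did depend on single libraries, at 1663 without iWAT replicate 1 and 357 without eWAT replicate 1, and it was 178 with cells assigned singly by their highest marker score. Different clusters held most of the class in the eWAT libraries and in each iWAT library. Cluster 1, led by Col6a5, Mgp and Timp1, held 3804 and 1556 eWAT cells and 27 and 60 iWAT cells, whereas cluster 7, led by Pi16 and Mrgprg, held 227 and 145 eWAT cells and 140 and 1987 iWAT cells. Cluster 15, led by Inmt, Igfbp3 and Plin4, held 22 and 98 eWAT cells and 215 and 951 iWAT cells, and was the main one in iWAT replicate 1.

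Progenitor genes were higher in iWAT APC-like cells as a group. Of 14 listed, 11 were called higher, against 2.29% of all genes tested, and none lower, with a median log2 difference of 2.57. Pi16, a peptidase inhibitor, had 153 and 190 CPM in eWAT, 1147 CPM in iWAT replicate 1 and 2913 CPM in replicate 2. Dpp4, the surface peptidase used to sort progenitors, had 56.8 and 61.4 CPM in eWAT and 352 and 369 CPM in iWAT (log2 difference 2.65 ± 0.35 SE, adjusted p = 0.00353). Dact2, a modulator of WNT and TGF-β signalling, had 2.28 and 3.43 CPM in eWAT and 44.7 and 59.3 CPM in iWAT. Cd248, which is shared by fibroblasts of many kinds, had 327 and 361 CPM in eWAT and 508 and 431 CPM in iWAT and did not pass (adjusted p = 0.692).

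The share of cells named progenitor-like followed the same order, but its markers include Pi16, Dpp4 and Dact2, so it is not separate support. Clusters were scored against the other APC-like cells of their own library. The share was 6.07% and 15.3% of eWAT APC-like cells, 35.9% in iWAT replicate 1 and 65.8% in replicate 2. These are 246, 276, 137 and 1974 cells. With cells assigned singly the shares were 24.4% and 25.7% in eWAT, 40.9% in iWAT replicate 1 and 77.9% in replicate 2. Preadipocyte-like cells were 53.8% and 62.0% in eWAT, 64.1% in iWAT replicate 1 and 32.4% in replicate 2, so the depots overlapped. Committed preadipocyte genes gave 1 call in 14 (7.14%, near the 4.62% of all genes tested), Apoe, lower in iWAT, and not called without eWAT replicate 1 (adjusted p = 0.457) or eWAT replicate 2 (0.108). Fabp4, a fatty acid carrier on that list, had 2480.1 and 3599.9 CPM in eWAT and 9248 and 7734 CPM in iWAT without being called (adjusted p = 0.142). In eWAT 40.2% and 22.6% of APC-like cells took neither name. The preadipocyte-like clusters of both eWAT libraries were led in part by stress and mitochondrial transcripts. Some in iWAT were too, with Dnajb1, Ier2 and Jun in a cluster of 70 cells in replicate 1 and mt-Nd5 in a cluster of 165 cells in replicate 2. A name needed a lead of 0.5 in mean log2 marker score over the other part, but not a positive score. Preadipocyte scores were negative, below the other APC-like cells of the library, in both such clusters of eWAT replicate 1 (-0.115 and -0.127). The largest of eWAT replicate 2 (-0.218) and its cluster of 95 cells (-0.0955) were so too, while its others scored 0.334 and 0.612. In iWAT replicate 1 they ran from -0.775 to 1.13, while in iWAT replicate 2 all were positive. A progenitor-like cluster of iWAT replicate 2 scored -0.412. These names are therefore weak.

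WNT and BMP modulators were called in 9 of 17 tested (52.9%, against 4.62% of all genes tested), 6 higher and 3 lower in iWAT. The ligands Wnt2, Wnt10b, Wnt11, Bmp2 and Bmp7 and the WNT antagonist Sfrp2 were higher. Wnt10b, an inhibitor of adipogenesis, had 1.39 and 1.72 CPM in eWAT and 24.05 and 23.7 CPM in iWAT (log2 difference 3.97 ± 0.41 SE, adjusted p = 0.00114). The WNT antagonist Sfrp1 and the activin and inhibin subunits Inhba and Inhbb were lower in iWAT. The calls of Sfrp1, Sfrp2, Inhba and Wnt11 were each lost when 1 library was left out, at adjusted p = 0.407 for Sfrp1, 0.314 for Sfrp2 and 0.68 for Inhba without eWAT replicate 1, 0.0932 for Sfrp1 and 0.157 for Sfrp2 without eWAT replicate 2, and 0.153 for Inhba and 0.0953 for Wnt11 without iWAT replicate 2. Inhbb had 89.2 and 93.8 CPM in eWAT and 12.8 and 21.2 CPM in iWAT.

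Of 18 collagens, Col12a1 was higher and Col6a5, Col6a6 and Col8a1 were lower, and 14 were not called (22.2% called, against 4.62% of all genes tested). Col12a1, a fibril-associated collagen, had 21.2 and 19.2 CPM in eWAT and 216 and 179 CPM in iWAT. Among 14 inflammatory stromal genes, Ptgs2 (cyclooxygenase 2), Has1 (hyaluronan synthase) and Cxcl10 were higher in iWAT and Saa3 was lower, which is 28.6% of the list. Has1 was not called without eWAT replicate 2 (adjusted p = 0.194), nor Cxcl10 without iWAT replicate 2 (0.381). Ptgs2 had 31.2 and 13.9 CPM in eWAT and 309 and 600 CPM in iWAT. Cxcl13, a B cell attracting chemokine on the list of lymph node stroma, had 15.3 and 7.29 CPM in eWAT and 133 and 234 CPM in iWAT (log2 difference 4.06 ± 0.51 SE, adjusted p = 0.00269). It was the called member of the 3 genes of that list that were tested. Enpp2 lay higher and Bst1 lower in iWAT without overlap, neither called (adjusted p = 0.187 and 0.182). Of 8 tested thermogenic genes, Cox8b and Cited1 (25% of the list) were called higher (Cited1 not without eWAT replicate 1, adjusted p = 0.256), while Ebf2 was not (52.5 and 136 CPM in eWAT, 172 and 307 CPM in iWAT).

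Mgp, which encodes matrix Gla protein, an inhibitor of calcification, had 7874 and 8259 CPM in eWAT APC-like cells and 619 and 372 CPM in iWAT (log2 difference -3.99 ± 0.55 SE, adjusted p = 0.00383). It was lower in iWAT in every class summed, including classes that are not stromal. Macrophage-like cells had 457 and 280 CPM in eWAT and 19.8 and 14.7 CPM in iWAT, and T-like cells 1183 and 527 CPM in eWAT and 41.0 and 13.04 CPM in iWAT, the latter not called (adjusted p = 0.130). The call in macrophage-like cells was lost without eWAT replicate 1 (adjusted p = 0.0527). Free RNA in the droplets can carry such a transcript into all classes, and its part in these values was not tested.

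Macrophage transcripts moved the same way inside the APC-like class. Its summed macrophage markers were 5251 and 3274 CPM in eWAT and 1056 and 863 CPM in iWAT, and eWAT subclusters of 459 and 97 APC-like cells were led by F13a1, C1qc and Cd74. A subcluster of 53 APC-like cells in iWAT replicate 2 was led by Trem2, Tyrobp and Mpeg1, with Cd74 and C1qc also among its leading genes. Of 16 LAM genes 4 were called lower in iWAT APC-like cells, among them Trem2 (360.0 and 235 CPM in eWAT, 29.0 and 39.1 CPM in iWAT), and of 9 MHC class II genes 3 were called lower, against 2.33% of all genes tested. Without eWAT replicate 1 the calls of Gpnmb (adjusted p = 0.324), Lgals3 (0.199), Cd74 (0.491) and H2-Eb1 (0.365) were lost, and without eWAT replicate 2 those of Gpnmb (0.104) and Cd74 (0.0969). The part of macrophage RNA in these calls was not tested. The 16 genes that respond to tissue digestion summed to 9022 and 10973 CPM in eWAT and 16023.5 and 16712 CPM in iWAT, with none called and 12 of 16 higher without overlap, against 16.6% of all genes tested.

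In progenitor-like cells 450 of 8794 genes tested were called (5.12%), 211 higher (2.4%) and 239 lower (2.72%) in iWAT. Itgb7, the integrin β7 chain, had 5.68 and 0.717 CPM in eWAT and 115 and 174 CPM in iWAT. Osr2, an odd-skipped zinc-finger factor, had 1.89 and 2.87 CPM in eWAT and 95.9 and 137 CPM in iWAT (log2 difference 5.61 ± 0.57 SE, adjusted p = 7.34e-06). Il1r2, the decoy receptor of interleukin 1, was seen as 2 UMIs in eWAT and 585 in iWAT, a ratio of 51.6 (95% counting interval 14.2 to 427). Cntn2, a neural adhesion protein, had 0 UMIs in eWAT and 62.6 and 10.2 CPM in iWAT, at least 6.56-fold higher.

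Genes lower in iWAT progenitor-like cells included a kinesin and a matrix protein. Kif1a, the axonal kinesin, had 15.1 and 28.7 CPM in eWAT and 0 UMIs in both iWAT libraries, at least 55.1-fold lower in iWAT. Cilp, a matrix protein of cartilage, had 596 and 1310 CPM in eWAT and 2.66 and 4.04 CPM in iWAT (log2 difference -7.86 ± 0.63 SE, adjusted p = 8.12e-07). Over all APC-like cells its log2 difference was -2.71. In preadipocyte-like cells Cilp had 393 and 287 CPM in eWAT and 155 and 132 CPM in iWAT. That log2 difference of -1.28 was not called (edgeR's test, adjusted p = 0.194).

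Of 9 tested genes that mark F3- and Clec11a-positive stroma, 7 were called lower in iWAT progenitor-like cells and 1, Igfbp3, higher, against 2.72% and 2.4% of all genes tested. The call of Clec11a was lost without eWAT replicate 1 (adjusted p = 0.205) or iWAT replicate 2 (0.199). Fmo2 had 275 and 1074 CPM in eWAT and 18.6 and 39.7 CPM in iWAT, and F3, the coagulation factor III, 75.7 and 101 CPM against 13.3 and 5.02 CPM. In eWAT replicate 2, 111 of the 276 progenitor-like cells came from a cluster led by Cpxm2, Mfap4, Cilp and C7, while a cluster of 499 cells led by C7, Sfrp1 and Mfap4 took no name in eWAT replicate 1. In iWAT, clusters with Fmo2 and with C7 or Cilp among their leading genes were named preadipocyte-like, with 41 and 511 cells. In eWAT replicate 2 the progenitor-like class thus held a cluster with leading genes that in iWAT led clusters of the other name. This was not so in eWAT replicate 1, where all 246 progenitor-like cells came from a cluster led by Sema3c, Dmkn and Ackr3. There, too, Fmo2 (275 CPM) and Cilp (596 CPM) lay above both iWAT libraries. Over all APC-like cells 1 of 10 genes of the list was called higher and 1 lower. The part of these clusters in the difference was not tested. Genes called numbered 171 without eWAT replicate 2, 860 without iWAT replicate 1 and 706 without iWAT replicate 2.

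Among preadipocyte-like cells, 119 of the 11522 genes tested passed (1.03%), 58 higher (0.503%) and 61 lower (0.529%) in iWAT. The name of this class is weak, as given above. Igfbp3, a binding protein of insulin-like growth factors, had 15.8 and 26.1 CPM in eWAT and 431 and 1212 CPM in iWAT. Nnat, which encodes neuronatin, had 1.67 and 4.89 CPM in eWAT and 165 and 155 CPM in iWAT (log2 difference 5.54 ± 0.48 SE, adjusted p = 0.00358). Chrdl1, a BMP antagonist, had 1.95 and 3.26 CPM in eWAT and 137 and 70.7 CPM in iWAT, and Arxes1 and Myl1 were also higher. Reads of Arxes1 may be shared with its near copy Arxes2.

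Acta2, Tpm2 and Des were lower in iWAT preadipocyte-like cells, whereas Myl1, a myosin light chain, was higher as given above. Myl1 is among the markers of skeletal muscle-like cells, and the part of skeletal muscle RNA in its level was not tested. Acta2, smooth muscle actin, had 57.8 and 39.3 CPM in eWAT and 3.11 and 2.90 CPM in iWAT. Tpm2, a tropomyosin, had 135 and 85.5 CPM in eWAT and 7.77 and 5.18 CPM in iWAT, and Des, which encodes desmin, 39.5 and 39.7 CPM against 2.33 and 1.66 CPM. No cluster was named mural-like, and the part of mural cells in these values was not tested. Fndc5 and Cadm4 were lower as well. Genes called in the class numbered 179 without eWAT replicate 2, 400 without iWAT replicate 1 and 436 without iWAT replicate 2.

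The make-up of the macrophage-like class differed between depots. PVM-like cells were 29.7% and 32.8% of eWAT macrophage-like cells and 76.1% and 85.6% of those in iWAT, which is 2372, 907, 937 and 2905 cells. They include cluster 16, with 29 and 136 eWAT cells and 78 and 979 iWAT cells. It was led by Mgl2, Vcam1 and Cbr2, with Retnla, Cd74, Mmp9 and H2-Aa also among its leading genes, but not Lyve1 or Cd163. LAM-like cells were 40.6% and 34.4% in eWAT and 16.1% and 9.96% in iWAT. The depots did not overlap for either share. The LAM-like cells include a proliferating cluster led by Hist1h1b, Cenpf and Prc1, with 836 and 143 eWAT cells and 22 and 49 iWAT cells, and without it LAM-like shares were 30.1% and 29.2% in eWAT and 14.3% and 8.52% in iWAT. At Leiden resolution 2 the LAM-like share overlapped, at 40.8% and 33.8% in eWAT, 37.7% in iWAT replicate 1 and 9.26% in replicate 2, and PVM-like cells were 58.5% and 86.6% of the iWAT class. When cells were assigned singly, the LAM-like shares of iWAT replicate 1 and eWAT replicate 2 were 27.9% and 28.3%.

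Of 12914 genes tested in macrophage-like cells, 67 were called (0.519%), 46 higher (0.356%) and 21 lower (0.163%) in iWAT. This number rested on every library, with 2 genes called without eWAT replicate 1, 7 without eWAT replicate 2, 204 without iWAT replicate 1 and 460 without iWAT replicate 2. Without eWAT replicate 1, each gene named by rule in this class except Rnase2a lost its call, at adjusted p from 0.0858 (Saa3) to 0.564 (Tspan33). Without eWAT replicate 2, Retnla, Mgl2, Cd209d, Cd209a, Mmp9, Gfra2, Hspa1b, Shisa9, Cd300c2, Syngr1 and Tspan33 lost theirs, at adjusted p from 0.0615 (Mmp9) to 0.163 (Tspan33). Retnla, a secreted protein of alternatively activated macrophages encoded on chromosome 16 (48842551 to 48844461), had 508 and 205 CPM in eWAT and 11609.9 and 11634.5 CPM in iWAT (log2 difference 4.93 ± 0.59 SE, adjusted p = 0.0218). The iWAT replicates were thus nearly level with each other and far above both eWAT libraries. Retnla was also present in the remaining cells of each library, at 533 and 145 CPM in eWAT and 3158 and 1849 CPM in iWAT, and the part of free RNA in these levels was not tested. Rnase2a, a secreted ribonuclease with close paralogs, had 1.26 and 1.26 CPM in eWAT and 110 and 136 CPM in iWAT (log2 difference 6.54 ± 0.36 SE, adjusted p = 7.72e-04).

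C-type lectins were among the other genes higher in iWAT. Mgl2, a lectin for galactose residues, had 70.7 and 69.2 CPM in eWAT and 659 and 472 CPM in iWAT. Cd209d had 51.9 and 75.8 CPM in eWAT and 582 and 447 CPM in iWAT, and its family member Cd209a 10.3 and 5.89 CPM against 115 and 59.2 CPM. Reads could be split among the near-identical Cd209 genes. Mmp9, a gelatinase, and Gfra2, a receptor of the GDNF family, were higher too, with log2 differences of 2.84 and 2.51.

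The 7 named genes lower in iWAT were Saa3, Prg4, Pcp4l1, Shisa9, Cd300c2, Syngr1 and Tspan33. Saa3, an acute-phase protein, had 68.8 and 41.5 CPM in eWAT and 2.52 and 3.68 CPM in iWAT (log2 difference -4.16 ± 0.41 SE, adjusted p = 0.0147), and Prg4, the lubricant of serous and joint surfaces, 44.8 and 37.7 CPM against 5.04 and 2.34 CPM. A small macrophage-like cluster led by Saa3, Alox15, Slpi and Prg4 held 66 and 16 eWAT cells and 0 of 1231 and 0 of 3394 iWAT cells, which allows shares of up to 0.244% and 0.0884%. Syngr1, among the leading genes of the LAM-like cluster 2, had 178 and 180 CPM in eWAT and 48.4 and 46.6 CPM in iWAT.

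Listed PVM genes had a median log2 difference of 1.44 and LAM genes one of -1.23 in macrophage-like cells, against 0.00 over all genes tested. Cd163, Timd4, Lyve1 and Trem2 are among the markers that named PVM-like or LAM-like cells. Their levels are thus not separate from the shares given above and describe the same difference. Of 13 PVM genes 2 were called, Cd163 (a haemoglobin scavenger receptor) and Timd4 (a receptor for apoptotic cells), both higher (0.356% of all genes tested were called higher), and 12 lay higher without overlap, against 30.5% of all genes tested. Neither call held without eWAT replicate 1 (adjusted p = 0.862 for Cd163 and 0.488 for Timd4) or eWAT replicate 2 (0.225 and 0.111). Timd4 had 6.29 and 8.11 CPM in eWAT and 33.5 and 43.8 CPM in iWAT. Lyve1, a hyaluronan receptor, had 279 and 210 CPM in eWAT and 916 and 913 CPM in iWAT but missed the threshold (adjusted p = 0.0662). Of 16 LAM genes none was called by edgeR's test and 13 lay lower without overlap, against 24.3% of all genes tested. Trem2 had 1465 and 1472 CPM in eWAT and 414 and 569 CPM in iWAT (adjusted p = 0.0877). Among macrophage-like genes tested, 54.8% had non-overlapping depots.

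The digestion-response genes also lay higher in iWAT macrophage-like cells, at summed levels of 8289 and 11383 CPM in eWAT and 16338 and 20493 CPM in iWAT, 14 of 16 without overlap, against 30.5% of all genes tested. Of these Hspa1b was called, with 15.5 and 16.4 CPM in eWAT and 88.4 and 128 CPM in iWAT, though its reads can be shared with its near-identical copy Hspa1a (adjusted p = 0.0527 for Hspa1a). Their part in the other differences of the class was not tested.

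**Figure D4:**
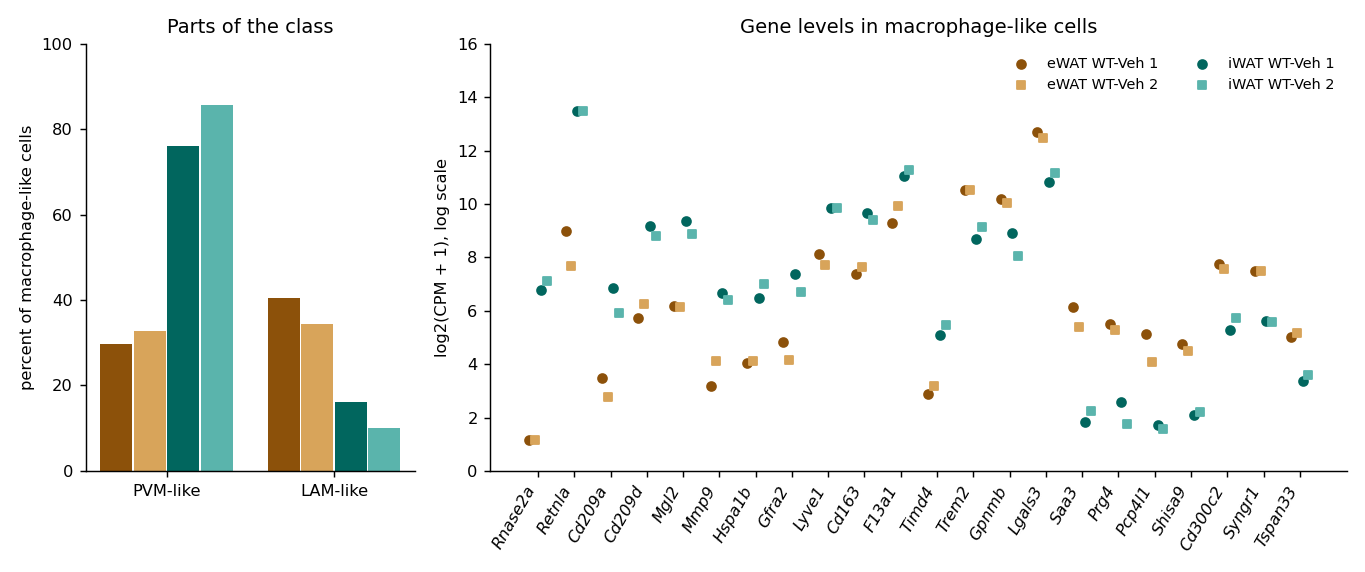
Left, percent of macrophage-like cells (vertical axis) named PVM-like or LAM-like, 1 bar per library. Right, gene levels in macrophage-like cells as log2(CPM + 1) (vertical axis, log scale), 1 point per library; Retnla is at 11609.9 and 11634.5 CPM in iWAT, and the LAM genes Trem2, Gpnmb and Lgals3 lie lower in both iWAT libraries without being called.

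Within PVM-like cells, most of these differences were not called. Of 10974 genes tested 2 passed (0.0182%), 1 in each direction (0.00911% each), Rnase2a, with 5.33 and 4.45 CPM in eWAT and 156 and 174 CPM in iWAT, and Mgp, lower in iWAT. Retnla had 2205 and 643 CPM in eWAT and 16047 and 14492 CPM in iWAT, higher in both iWAT libraries at an adjusted p of 0.235. Of 16 LAM genes 13 lay lower without overlap (19.5% of all genes tested did) and none was called, for example Gpnmb with 138 and 123 CPM in eWAT and 26.9 and 30.3 CPM in iWAT (adjusted p = 0.0907). Of 9 tested MHC class II genes 8 lay higher in iWAT without overlap (19% of all genes tested did), none called. H2-Aa had 585 and 1155 CPM in eWAT, 1435 CPM in iWAT replicate 1 and 3146 CPM in replicate 2. Cluster 16, with 979 cells of iWAT replicate 2, had Cd74 and H2-Aa among its leading genes, and its part in these levels was not tested. Different clusters held the class in each library, cluster 4 in eWAT, clusters 10 and 16 in iWAT replicate 2 and cluster 18 in iWAT replicate 1. Without iWAT replicate 1 there were 41 calls and without iWAT replicate 2 there were 345.

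EC-like cells showed no called gene among 11450 tested with edgeR. An unadjusted p under 0.05 was reached by 146 genes higher and 120 lower, and DESeq2 called 17. In iWAT replicate 1, 2393 of 2803 EC-like cells belonged to the low-UMI cluster 8, and without that cluster 41 genes were called. Leaving out a library gave 7 calls without eWAT replicate 2, 192 without iWAT replicate 1 and 580 without iWAT replicate 2. Genes of capillary lipid uptake overlapped between depots in 10 of 12 cases, whereas 30.3% of all genes tested had non-overlapping depots. Gpihbp1, which anchors lipoprotein lipase on capillaries, had 3237 and 5351 CPM in eWAT, 1829.8 CPM in iWAT replicate 1 and 6709 CPM in replicate 2, so the iWAT pair bracketed eWAT. Cd36, a fatty acid transporter, had 6518 and 6209 CPM in eWAT and 8772 and 7594 CPM in iWAT. Hoxc10, called in APC-like cells, had 0 and 0.703 CPM in eWAT and 3.01 and 10.8 CPM in iWAT EC-like cells and was not called.

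T-like cells gave no called gene among 9280 tested with edgeR, with 149 higher and 114 lower when a p under 0.05 was taken unadjusted, and 4 calls with DESeq2. In Satb1 and Ccr7, the naive T cell genes described here, iWAT replicate 1 lay above and iWAT replicate 2 below both eWAT libraries. Other genes of that list are not counted here. Satb1, a chromatin organiser of naive T cells, had 166 and 220 CPM in eWAT, 1541 CPM in iWAT replicate 1 and 133 CPM in replicate 2. Satb1 was also among the leading genes of the unnamed low-UMI clusters 0 and 14, with 6143 and 1387 cells of iWAT replicate 1. Its level there is thus not particular to T-like cells. Ccr7, the lymph node homing receptor, had 125 and 101 CPM in eWAT, 544 CPM in iWAT replicate 1 and 81.5 CPM in replicate 2. Different clusters held the T-like class in eWAT and in each iWAT library. iWAT replicate 1 had 982, 974, 525 and 276 cells in clusters with at most 5 cells of any other library. The main eWAT cluster held 187 and 339 eWAT cells, and the main cluster of iWAT replicate 2 held 376 of its cells.

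Of 14 tested genes of tissue-resident and activated lymphocytes, 12 were lower in iWAT replicate 1 than in replicate 2, and in 7 replicate 1 was the lowest of the 4 libraries. No share over all genes tested stands beside these counts, so they are a description only. Klrg1 had 6.26 and 12.3 CPM in eWAT, 2.77 CPM in iWAT replicate 1 and 73.3 CPM in replicate 2, and Pdcd1 had 56.3 and 138 CPM in eWAT, 9.82 CPM in iWAT replicate 1 and 110 CPM in replicate 2. T-like cells of iWAT replicate 1 had a median of 12.4% mitochondrial UMIs, against 2.95 to 3.52% in the other libraries. Genes called in T-like cells numbered 4 without eWAT replicate 1, 6 without eWAT replicate 2, 77 without iWAT replicate 1 and 1041 without iWAT replicate 2.

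**Figure D5:**
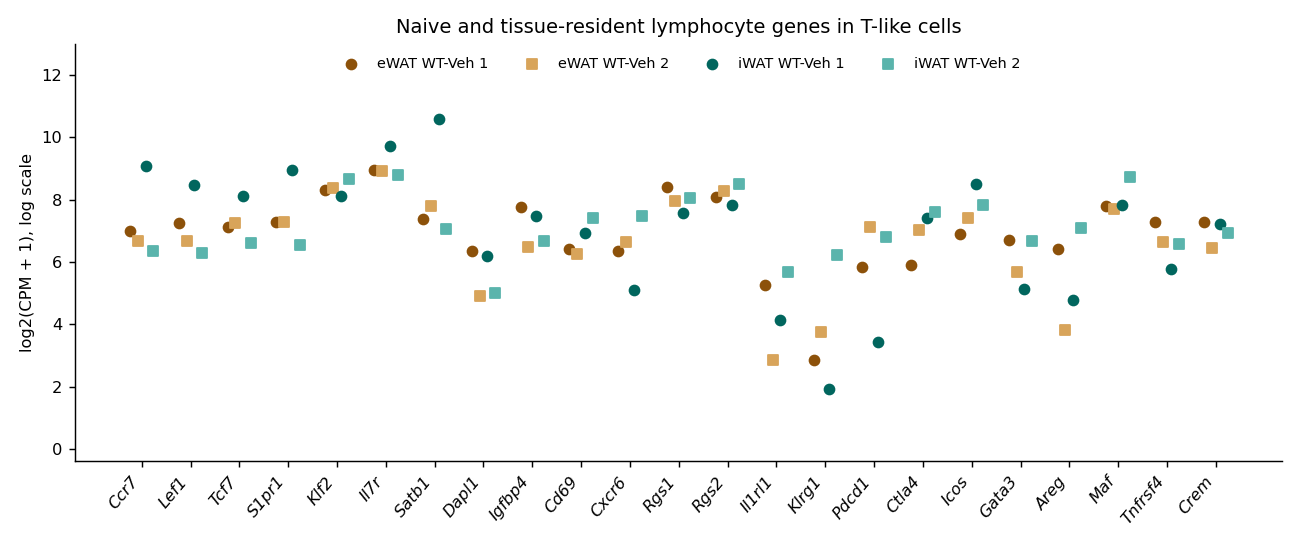
Level of genes of naive (Ccr7 to Igfbp4) and tissue-resident or activated lymphocytes (Cd69 to Crem) in T-like cells as log2(CPM + 1) (vertical axis, log scale), 1 point per library. iWAT replicate 1 is highest for Satb1 and Ccr7 and lowest for Klrg1 and Pdcd1, with iWAT replicate 2 and the eWAT libraries on the other side.

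Over whole libraries no gene of 15223 was called with edgeR, though with no adjustment 1154 higher and 950 lower ones had a p under 0.05, and DESeq2 called 783. Without iWAT replicate 1 there were 241 calls and without iWAT replicate 2 there were 583. Such sums hold the make-up of the library, and fewer cells of a type and less RNA per cell cannot be told apart in them. Rnase2a had 0.975 and 0.727 CPM in eWAT and 34.7 and 51.7 CPM in iWAT, and Mgp 1906 and 2333 CPM in eWAT and 95.1 and 129.99 CPM in iWAT, both at an adjusted p of 0.054.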

How the data were processed

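Droplet single-cell libraries of the stromal vascular fraction were made from the lean vehicle eWAT and iWAT samples, 2 libraries per depot. The authors deposited a table of raw UMI counts, barcodes by genes, per library, and the submitters' processing notes name Cell Ranger 3.0.2, bcl2fastq 2.19.1.403 and mm10. The deposited iWAT tables hold no barcode above 22000 UMIs, whereas the eWAT tables do, so the same limits were applied to both.

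Barcodes with 700 to 22000 UMIs, 200 to 6000 genes and under 25% mt- UMIs were kept. Cells were clustered with scanpy 1.11.5 (2000 variable genes, 25 principal components, 20 neighbours, Leiden resolution 1), without correction between libraries, and clusters were named from marker genes. Doublets were kept; as an alternative, Scrublet calls were removed (2.01 to 13.8% of cells per library), taking the highest scores up to the expected rate in eWAT replicate 2 and iWAT replicate 1, where the automatic threshold marked 0% and 31.8%.

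UMIs were summed per library and class (at least 20 cells per library) and tested with edgeR 4.0.16 (TMM, filterByExpr, glmQLFit and glmQLFTest, 2 residual degrees of freedom, two-sided). The median prior degrees of freedom, which carry spread borrowed across genes, ran from 4.46 (whole libraries) to 15.9 (progenitor-like cells). A call needed 1.1-fold or more and p of 0.05 or less after Benjamini-Hochberg adjustment. CPM is per 1000000 UMIs of the same class and library. SE is the log2 difference divided by the square root of F. Scripts were tested on simulated data. Named genes were those called, without overlap between depots, at a mean of at least 20 CPM in the higher depot and not below the rest of the library there, without Gm, Rik or receptor segment names, taking the 12 (APC-like), 8 (other classes) or 5 (parts, not already named) with the largest log2 difference each way. Other genes come from 26 lists, and some genes chosen by the rule or listed are not reported here. The classes, members and lists were chosen with earlier results of these data known. Gene positions are from GENCODE on GRCm38. Alternatives were DESeq2 1.42.0, library size scaling, no low-count filter, a replicate block, leaving out each library, thinning to 700 UMIs per cell, other clusterings and all 12 libraries.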

Additional observations from a re-analysis of the deposited data

Results flagged for a closer look

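A pair of developmental regulators of eWAT were seen in an iWAT library outside the lean comparison. In APC-like cells assigned singly, the library labelled iWAT ob/ob-Rosi 1 (leptin-deficient mice given rosiglitazone) held Wt1 at 4.83 CPM, or 59 UMIs, whereas the other 5 iWAT libraries, including both lean ones, held 0. Tcf21 was at 7.04 CPM there, or 86 UMIs, against at most 0.437 CPM in the other iWAT libraries. In the eWAT libraries Wt1 ranged from 33.4 to 161 CPM and Tcf21 from 22.4 to 171 CPM. These values stand out because the library lies above the lean iWAT controls and is outside the lean comparison, entering only the alternative fits with all 12 libraries, and they were not tested.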

How the results depend on the processing

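Counts of genes called depended strongly on the setting. With DESeq2 they were 783 over whole libraries, 245 in preadipocyte-like, 17 in EC-like, 704 in macrophage-like, 61 in PVM-like and 4 in T-like cells. Scaling by library size alone gave 17 over whole libraries and 189 in macrophage-like cells. Without the low-count filter there were 36 over whole libraries, 1228 in APC-like, 515 in preadipocyte-like, 218 in EC-like, 1209 in macrophage-like, 276 in PVM-like and 25 in T-like cells. Thinning to 700 UMIs per cell gave 329 in APC-like, 155 in progenitor-like, 35 in preadipocyte-like, 112 in macrophage-like and 1 in T-like cells. Cells assigned singly gave 178 in APC-like, 21 in preadipocyte-like, 34 in macrophage-like and 1 in T-like cells. Leiden resolution 0.5 gave 229 in preadipocyte-like cells, and resolution 2 gave 40 in macrophage-like and 1 in PVM-like cells. Without Scrublet calls there were 3 over whole libraries and 1 in PVM-like cells. With all 12 libraries there were 335 over whole libraries, and with all 12 libraries and cells assigned singly, which changes both choices, 809 in progenitor-like, 192 in preadipocyte-like, 1 in EC-like, 436 in macrophage-like, 4 in PVM-like and 1 in T-like cells. EC-like cells without the cluster led by Lars2, an alternative chosen after seeing the data, gave 41.

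Leaving out 1 library gave 0 to 583 calls over whole libraries, 357 to 1663 in APC-like, 171 to 860 in progenitor-like, 140 to 436 in preadipocyte-like, 0 to 580 in EC-like, 2 to 460 in macrophage-like, 3 to 345 in PVM-like and 4 to 1041 in T-like cells. The labels do not say that equal replicate numbers share a mouse, and deviations of same-numbered libraries correlated at r = 0.122 to 0.484 across genes. The replicate block gave 634 calls over whole libraries, 1381 in APC-like, 694 in progenitor-like, 582 in preadipocyte-like, 84 in EC-like, 1099 in macrophage-like, 330 in PVM-like and 17 in T-like cells, and 0 classes by share.

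The number of classes that differed in share was 0 among named cells only, 0 at Leiden resolution 0.5, 3 at resolution 2, 0 without Scrublet calls and 0 to 6 with 1 library left out. The unnamed share had log2 ratios of -1.11 to 7.64 with 1 library left out, the lowest without iWAT replicate 1. The PVM-like percent, iWAT minus eWAT, was 41.5 at resolution 2 and 41.7 with cells assigned singly. The LAM-like one was -44.7 at resolution 0.5, -13.8 at resolution 2 and -13.4 singly, and the preadipocyte-like one was -34.3 singly and -25.5 to 6.24 with 1 library left out, the highest without iWAT replicate 2. In alternatives chosen after seeing the data, the LAM-like difference was -18.2 without the proliferating cluster, and the EC-like percent, iWAT minus eWAT, was 1.61 without its low-UMI cluster against 8.52 with it. At resolution 2 the progenitor-like and preadipocyte-like differences have no value, since no eWAT replicate 1 cells took either name. Of 114 called gene values, none reversed, and between 0 (library size, no filter, block, without iWAT replicate 1) and 33 (cells assigned singly) lost their call under a setting, and 30 did without eWAT replicate 1. Genes called in the main fit all had depots without overlap, so a reversal was unlikely from the start. Thinning left only 99 of these values to compare, of which 16 lost their call. The causes were not tested. With 2 libraries per depot, spread is poorly estimated.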

Other observations

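The depot difference in Tbx15 was also present in the leptin-deficient libraries, of which 2 per depot came from mice given rosiglitazone and 2 from mice given vehicle. In APC-like cells assigned singly, Tbx15 ranged from 31.6 to 62.1 CPM in the 4 ob/ob iWAT libraries and from 0.0804 to 0.140 CPM in the 4 ob/ob eWAT libraries, next to 31.0 and 28.6 CPM in lean iWAT and 0 UMIs in lean eWAT. Wt1 and Tcf21 were less uniform, being seen in the iWAT library labelled ob/ob-Rosi 1 as given above. These values are given as a description.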
